A study of Mus musculus with 16 samples.

Results

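The comparison described here set mouse retinas that had received a GFP virus and an optic nerve crush, labelled GFP, against uninjured retinas. It used 7 of the 16 labelled samples of the series: GFP replicates 2, 3 and 4, and Uninjured replicates 1 to 4. The members were the value columns of these libraries in the all-gene table of this comparison. GFP replicate 1 was not analysed here. GFP retinas came from C57BL/6 mice aged around 6 weeks that had an adeno-associated virus of serotype AAV2 carrying GFP placed in the vitreous, the gel in front of the retina. The optic nerve was crushed 2 weeks after the virus, at around 1 mm behind the optic disc and with a hold of 3 seconds. The tissue was collected 4 days later. Uninjured retinas came from the same strain, with no virus and no crush named in the labels. An age of around 6 weeks is given for them too, and the age at collection is not given here for either group. Virus, injection, GFP expression and crush therefore differ together between the groups and cannot be told apart. The tissue was whole retina, and reads of the GFP transgene are not in the table. Nothing in the labels says that replicates came from separate animals, so the p-values measure the spread between these libraries, which may be technical.

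The retina turns light into signals in rod and cone photoreceptors, passes them through bipolar cells under the control of horizontal and amacrine cells, and sends them to the brain through the axons of the retinal ganglion cells, which form the optic nerve. Müller glia span the tissue, clear glutamate and feed the neurons, and microglia are its resident macrophages. Crushing the nerve cuts the axons of ganglion cells, which in mammals do not regrow them unaided and die over the following weeks. Photoreceptors outnumber ganglion cells by far in mouse retina and draw heavily on glycolysis. A gene used by rare cells can change many-fold and move few reads, whereas a gene that holds many reads can move many of them with a small fold change.

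Reads recovered per library ranged from 17405254 to 30974058. Levels are given on the deposited scale, gene reads divided by 1 factor per library, and are called normalized reads. The first principal component held 46.8% of the variance, and 97.2% of it lay between the groups. Features that hold ribosomal RNA sequence took 1.41% to 2.46% of the reads in 5 libraries, against 0.0396% in Uninjured replicate 2 and 0.0967% in Uninjured replicate 3. The defining genes of photoreceptors, bipolar cells and Müller glia were high in every library, as in retina. Markers of neighbouring tissue varied between libraries: the summed 14 genes of retinal pigment epithelium ran from 1621 to 6648 normalized reads in GFP and 1575 to 4748 in Uninjured, with 0 of 14 passing the test. The summed blood genes ran from 426 to 571 normalized reads in GFP and 303 to 737 in Uninjured, with 0 of 5 passing. Genes of lens, iris and ciliary body summed to 1325 to 2487 normalized reads in GFP and 1284 to 1667 in Uninjured, with 1 of 13 higher. Of 15 crystallins, lens proteins and small chaperones, 3 were higher and 0 lower, with a median log2 fold change of 1.39. Their sum was 1724 to 3863 normalized reads in GFP and 1374 to 1690 in Uninjured.

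Among 19961 genes tested with limma on log2(normalized reads + 1), 1112 were higher in GFP (5.57%) and 1164 were lower (5.83%) at an adjusted p under 0.05, 11.4% in all. The edgeR test on recovered reads gave 1072 higher (6.01% of its 17823 genes) and 1069 lower (6%), and DESeq2 gave 1000 (5.01%) and 1098 (5.5%). In 4363 genes (21.9%) the lowest library of 1 group lay above the highest of the other, a share to hold beside each statement of no overlap below. The 5.57% and 5.83% are the shares over all genes to hold beside each count of family members below. The shares differ with level: in the highest 10% of genes by level they were 3.66% higher and 12.9% lower. All 22 rod markers and 15 of 21 glycolysis genes lay in that class, so its shares are the closer background for them. The 2 directions had different shapes. Genes that were higher had a median log2 fold change of 0.79 and a median level of 129 normalized reads, and 453 of them were at least 2-fold higher. Genes that were lower had a median of -0.35 and a median level of 844 normalized reads, and only 91 were at least 2-fold lower. Of the 1164 falls, 832 (71.5%) were under 0.5 in size on the log2 scale, against 320 of the 1112 rises (28.8%). In the lowest 10% of genes by level, 128 were higher and 11 lower, and in the highest 10% 73 were higher and 258 lower. Summed over called genes, the mean difference was 241496 normalized reads for the rises and -550167 for the falls, of which 58771 and -21087 came from genes that changed at least 2-fold. Most of the reads gained or lost between the groups thus sat in genes that changed by less than 2-fold. The balance between rises and falls depends on how libraries are scaled: scaling by total reads outside ribosomal RNA features, an alternative chosen after seeing the data, gave 1437 rises and 801 falls, or 64.2% rises among calls against 48.9%. It moved the median log2 fold change of all genes to 0.06, against 0.01. Levels and differences in reads also depend on transcript length, so they are not compared as molecule numbers between genes.

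**Figure D1:**
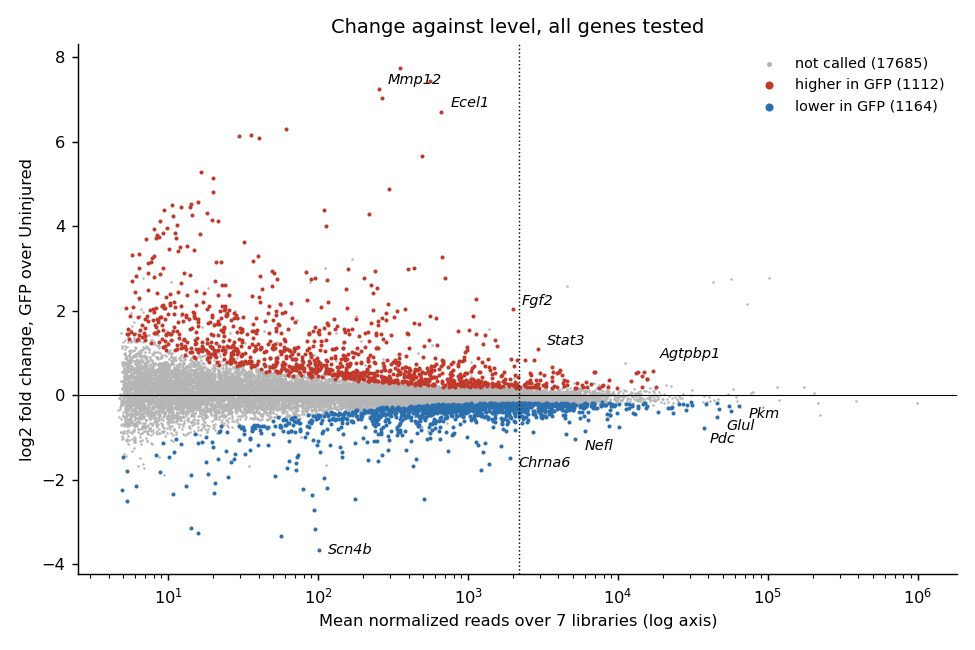
Log2 fold change of GFP over Uninjured (vertical axis) against the mean normalized reads of each of the 19961 genes tested (horizontal log axis), with genes that passed the limma test coloured by direction. The dotted line marks the lower bound of the most abundant 10% (2171.1 normalized reads): large rises lie to its left, and to its right nearly all called genes lie within 1 log2 unit of 0.

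**Figure D2:**
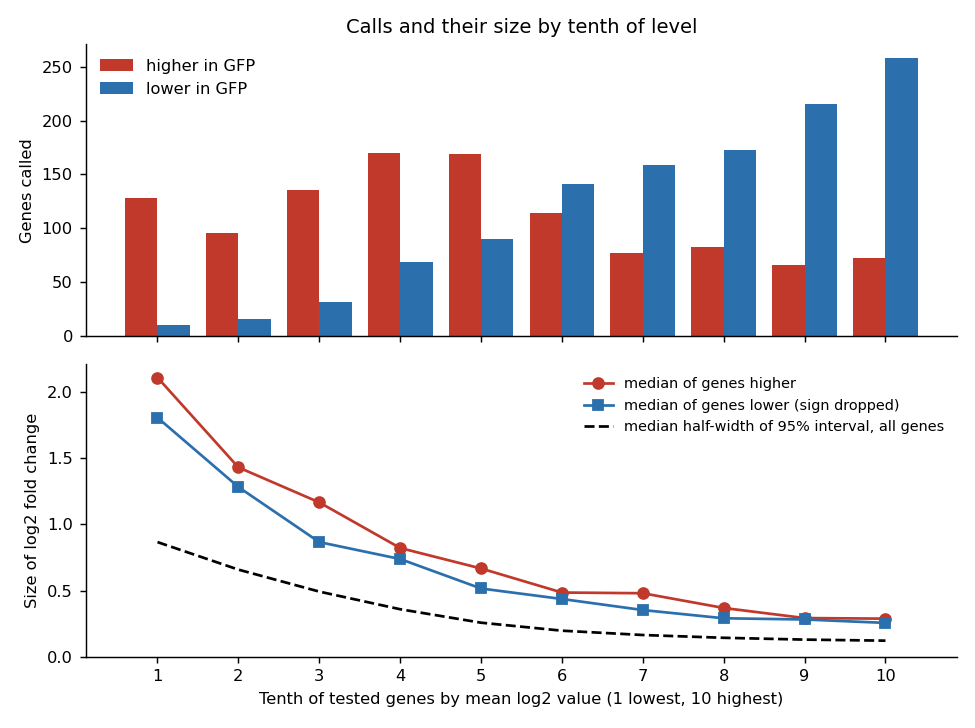
Genes called higher or lower in GFP against Uninjured in 10 classes of equal size of the 19961 tested genes, ordered by level (upper panel), and the median size of the called log2 fold changes beside the median half-width of the 95% interval (lower panel). Rises outnumber falls in the lowest class (128 and 11), and falls outnumber rises in the highest (258 and 73).

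The most abundant 10%, 1996 genes with means from 2171.1 normalized reads upward, held 64.8% of all normalized reads. In it, 73 genes were higher (3.66%) and 258 lower (12.9%), and all but 1 in each direction changed by less than 2-fold. The median rise was 0.29 on the log2 scale (21.7% by means) and the median fall -0.26 (-16.3%). The 95% interval of a log2 fold change reached a median of 0.12 to either side among these genes, against 0.23 over all genes. In classes 9 and 8 of the 10 ordered by level it was 0.13 and 0.14, with median falls of -0.28 and -0.29. Changes of this size could thus be seen in those classes too, and less well in low genes (0.87 in class 1). The count of abundant falls was 161 without GFP replicate 3, and with total-read scaling 134 rises stood beside 182 falls. In this class 22.1% of calls were rises, and 42.4% with that scaling. No called gene changed direction under any alternative. Called genes named in the rest of the Results kept their call without each single library and under each tool, scaling, pseudocount and filter, unless stated. This does not cover genes named only in the closing sections.

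Some abundant genes that rose are known from photoreceptors, although 0 of 22 rod markers and 1 of 15 cone markers rose. Agtpbp1 (ENSMUSG00000021557, chr13:59445742-59585227, minus strand, GENCODE on mm10), a carboxypeptidase that trims glutamates from tubulin and whose loss causes photoreceptor degeneration in mice, had 20291, 21322 and 21686 normalized reads in GFP and 14677, 13416, 13782 and 14728 in Uninjured. The groups did not overlap, and the GFP mean was 49.1% higher (log2 fold change 0.58, SE 0.05, limma adjusted p = 2.41e-07). Gnb3, the G protein beta subunit of cones and ON bipolar cells, had 15037, 17657 and 16869.7 normalized reads in GFP and 10949, 11276, 10571 and 12187 in Uninjured. Again every GFP library lay above every Uninjured library (log2 fold change 0.55, SE 0.06, limma adjusted p = 2.64e-06). Arl6, a small GTPase of the ciliary Bardet-Biedl pathway, averaged 4604 ± 200.1 normalized reads in GFP and 2908 ± 147 in Uninjured (SD, n = 3 and 4), a rise of 0.66. BC027072, the mouse gene of the photoreceptor ciliary protein PCARE, rose by 0.45 (limma adjusted p = 3.1e-05) and Samd7, a repressor in photoreceptors, by 0.55 (limma adjusted p = 0.00794). These rises stood beside falls of other photoreceptor genes.

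Other abundant rises were signalling and structural genes. Ahr, a ligand-activated transcription factor, had 3180.3, 3238 and 3078 normalized reads in GFP and 1769, 1709, 1719 and 1938 in Uninjured, a rise of 0.83 (SE 0.06, limma adjusted p = 4.15e-09). Myo10, a myosin of filopodia, rose by 0.83, with 3583, 3913 and 3395 normalized reads in GFP and 2064, 2349, 1638 and 2173 in Uninjured. GFP replicate 3 was the highest of the Myo10 values. Il6st, the gp130 receptor chain shared by cytokines of the interleukin 6 family, was 46.8% higher in GFP (log2 fold change 0.55, SE 0.06, limma adjusted p = 3.53e-06). Vim, the intermediate filament protein vimentin of Müller glia, was 52.3% higher (log2 fold change 0.61, SE 0.06, limma adjusted p = 2.51e-07). Ptp4a3, a protein tyrosine phosphatase, and Zfyve28, an endosomal protein, rose by 0.53 and 0.54. Clu, a secreted chaperone, had 16883, 19657 and 17803 normalized reads in GFP and 13514, 14037, 10014 and 12499 in Uninjured, and its rise of 0.54 was lost without GFP replicate 3 (limma adjusted p = 0.087). Apoe, the lipid carrier made by Müller glia and microglia, averaged 18099.8 ± 1880.4 normalized reads in GFP and 13756 ± 838 in Uninjured (SD, n = 3 and 4), a rise of 0.39 (limma adjusted p = 0.000363).

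**Figure D3:**
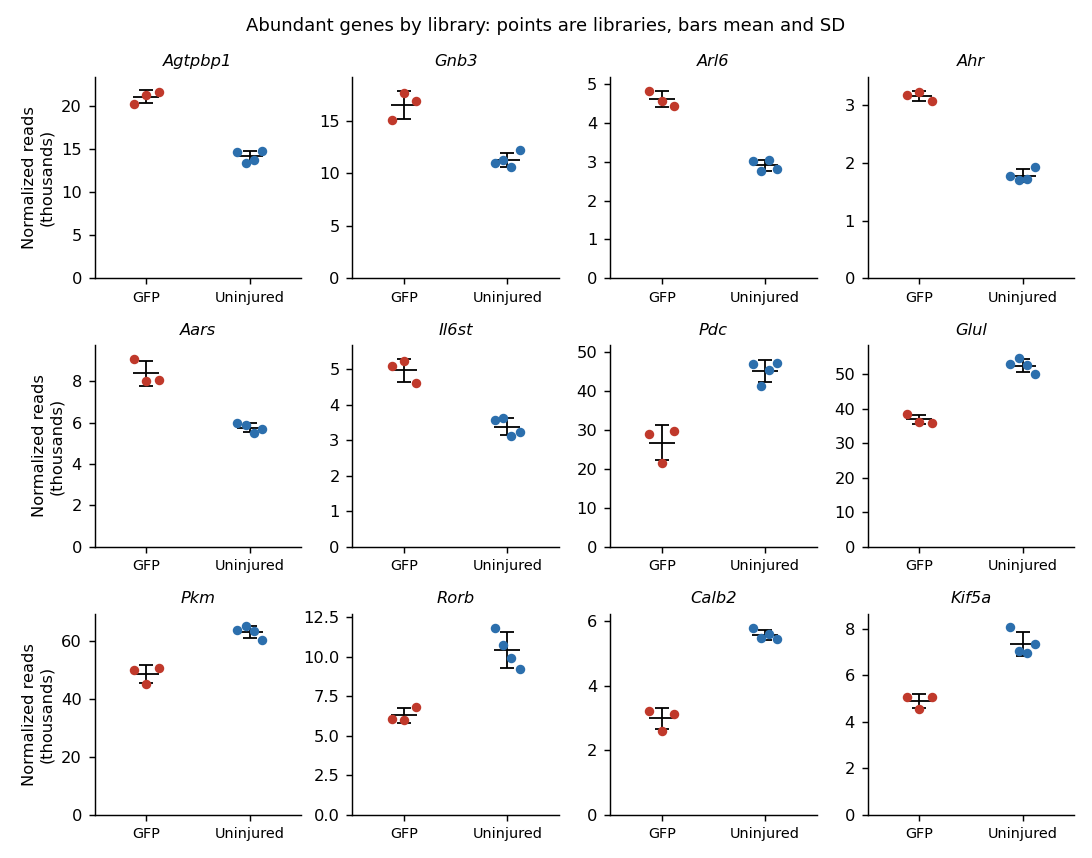
Normalized reads (vertical axis, scaled down by 1000) per library of 12 abundant genes that rose or fell by less than 2-fold, with GFP (3 libraries) left of Uninjured (4 libraries) in each panel, points for libraries and bars for the mean and SD. In each panel the points of the groups do not overlap, although the means differ by less than 2-fold.

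The abundant genes that fell included markers of ganglion and amacrine cells and genes of photoreceptors and Müller glia. Calb2, which encodes the calcium binding protein calretinin of amacrine and ganglion cells, had 3223, 2600.0 and 3128 normalized reads in GFP and 5777, 5470.4, 5590.0 and 5445 in Uninjured. Its mean fell by 46.4% (log2 fold change -0.91, SE 0.07, limma adjusted p = 5.97e-09), and no library overlapped. Pdc, phosducin, a photoreceptor protein that binds the beta-gamma subunits of transducin, had 28838, 21468 and 29697 normalized reads in GFP and 47027, 41184, 45426 and 47075 in Uninjured. It fell by 0.77 (SE 0.11, limma adjusted p = 0.00151), among the 6 largest losses of reads of any called gene. Glul, the glutamine synthetase with which Müller glia convert glutamate, had 38372, 36218 and 35955 normalized reads in GFP and 52866, 54585, 52517 and 49914 in Uninjured. The Glul groups lay apart (log2 fold change -0.51, SE 0.05, limma adjusted p = 9.34e-07). Rorb, a nuclear receptor needed for rod and horizontal cell development, fell by 39.7% (log2 fold change -0.73, SE 0.07, limma adjusted p = 3.64e-06). Kif5a, a neuronal kinesin heavy chain, averaged 4908 ± 296 normalized reads in GFP and 7353 ± 509.9 in Uninjured (SD, n = 3 and 4), and Stmn3, a neuronal tubulin-binding stathmin, 1830.0 ± 124 normalized reads in GFP and 2699 ± 119.9 in Uninjured. Both are expressed strongly in ganglion cells. Further abundant falls were Lpin2, a phosphatidate phosphatase (-0.65), Rab11fip4, a Rab11 partner (-0.64), Lynx1, which tempers nicotinic receptors (-0.64), and Tcf20, a transcriptional cofactor (-0.33). Esrrb, an orphan nuclear receptor of rods, fell by 0.84 (limma adjusted p = 0.0366), but the call was lost without any 1 GFP library (limma adjusted p = 0.111, 0.145 and 0.0863 without replicates 2, 3 and 4) and without Uninjured replicate 1 (0.0866).

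Counting markers by cell type gives a frame for the families that follow. Of 25 ganglion cell markers, 19 fell and 1 rose, with a median log2 fold change of -1.04, and their summed level was 14607 to 16649.8 normalized reads in GFP and 27858 to 31354 in Uninjured. In bulk retina, fewer ganglion cells and less RNA per ganglion cell cannot be told apart. Of 22 markers of microglia and macrophages, 18 rose and 0 fell, with a median of 1.73, and their sum was 4287 to 7305 normalized reads in GFP and 1773 to 2054 in Uninjured. These 2 shifts stand beside most neuronal and immune families below, and their part in those results was not tested. Bipolar cells had 11 of 21 markers lower and 0 higher, with a median of -0.27 and a sum of 46509.5 to 49098 normalized reads in GFP and 50209 to 55916 in Uninjured. The falls included Gpr179 (-0.31, limma adjusted p = 0.000709), the ON bipolar receptor that anchors regulators of the mGluR6 cascade, and Isl1 (-0.33, limma adjusted p = 0.00239), a homeobox factor that ganglion and amacrine cells also use. Trpm1, the ON bipolar channel, fell by 0.22, and its call was lost without GFP replicate 4 (limma adjusted p = 0.0549).

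Of 22 rod markers, 5 were lower and 0 higher, or 3 lower without GFP replicate 2, GFP replicate 4 or Uninjured replicate 1. Their summed level was 1849375 to 2040198 normalized reads in GFP and 2117097 to 2257318 in Uninjured, without overlap. Beside Pdc, Rom1, a disc rim protein, had 49560.0, 45961 and 51418 normalized reads in GFP and 59948, 57048, 61007 and 57101 in Uninjured (log2 fold change -0.26, SE 0.06, limma adjusted p = 0.00236). The differences of Gnat1 (-0.18) and Sag (0.21), rod transducin and arrestin, did not pass. Of 15 cone markers, 1 rose (Gnb3) and 3 fell, and the falls were 1 without GFP replicate 3 or Uninjured replicate 4. Opn1sw, the short-wave cone opsin, differed by -0.20, and its call was lost without GFP replicate 3 (limma adjusted p = 0.0839), GFP replicate 4 (0.0603) or Uninjured replicate 4 (0.0612), and with total-read scaling (0.074). Amacrine cells had 4 of 23 markers lower and 0 higher, or 2 without GFP replicate 3 or GFP replicate 4. Among Müller glia markers, 6 of 20 rose and 2 fell with a median of 0.04: Vim, Clu, Apoe, Sox9 (0.70), Dbi (0.28) and Aldh1a1 (0.27) were higher, and Glul and the carbonic anhydrase Car14 (-0.28) lower. The Dbi call was lost without GFP replicate 2 (limma adjusted p = 0.111), and the Aldh1a1 call without GFP replicate 3 (0.192), GFP replicate 4 (0.0638), Uninjured replicate 1 (0.0517) or Uninjured replicate 4 (0.0786). Gfap, the filament protein that glia raise under stress, had 1345, 1701 and 1215 normalized reads in GFP and 743, 674, 459.6 and 721 in Uninjured. Its rise of 1.14 passed (limma adjusted p = 0.0234) and was lost without GFP replicate 2 (0.0675), GFP replicate 3 (0.0565) or Uninjured replicate 2 (0.0712).

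Genes of glycolysis, which splits glucose into pyruvate and feeds lactate output, fell moderately. Of 21 genes of glycolysis and glucose uptake, 13 were lower and 0 higher (8 to 14 lower over the alternatives), with a median log2 fold change of -0.28 against 0.01 for all genes. Their summed level was 237587 to 250218 normalized reads in GFP and 275261 to 311043 in Uninjured, without overlap. Pkm, pyruvate kinase, had 50010.0, 44914 and 50745 normalized reads in GFP and 63764, 64894, 63204 and 60165 in Uninjured, and fell by 22.9% by means (log2 fold change -0.38, SE 0.06, limma adjusted p = 7.47e-05). Ldha, lactate dehydrogenase A, which makes the lactate that photoreceptors release, had 13123, 13593 and 14044 normalized reads in GFP and 17109.6, 18194, 16589.8 and 14927 in Uninjured (log2 fold change -0.29, SE 0.06, limma adjusted p = 0.00243). Uninjured libraries were above GFP libraries for both. The falls covered most steps of the pathway: Hk2, the hexokinase of photoreceptors (-0.75), Gpi1 (-0.26), the phosphofructokinases Pfkm (-0.49) and Pfkl (-0.31), the aldolases Aldoc (-0.43) and Aldoa (-0.25), Tpi1 (-0.42), Gapdh (-0.24), Pgk1 (-0.49) and Ldhb (-0.48). Hk2 had 6688, 6812 and 8515 normalized reads in GFP and 13739, 14064, 10328 and 11351 in Uninjured, and its call was lost without GFP replicate 3 (limma adjusted p = 0.0904). Aldoa, the gene with the most reads among them, was lost without GFP replicate 2 (0.0645) and with edgeR (adjusted p = 0.0664). Slc2a3, the neuronal glucose transporter, fell by 0.23 and was lost without GFP replicate 3 (limma adjusted p = 0.0642). Gapdh and Pfkl were lost without GFP replicate 2 (limma adjusted p = 0.0599 and 0.0511), and Gpi1 without GFP replicate 4 (0.0527). Hk1, the hexokinase of most neurons, differed by 0.09 and did not pass.

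Mitochondrial energy genes gave smaller differences that depended on the scaling. Of 36 nuclear complex I subunits, 8 were lower and 0 higher with a median of -0.12, and the 8 became 1 with total-read scaling. Without single libraries the count was 2 (GFP replicate 2 or GFP replicate 4), 4 (GFP replicate 3) and 5 (Uninjured replicate 3 or Uninjured replicate 4). Of 17 ATP synthase subunits 3 were lower, with Atp5g3, a subunit of the membrane ring, lower in every alternative (log2 fold change -0.32, SE 0.06, limma adjusted p = 0.000604). The ATP synthase count was 1 without GFP replicate 4 or Uninjured replicate 1. Of 18 enzymes of the tricarboxylic acid cycle 3 were lower, or 1 without GFP replicate 3 and 6 without Uninjured replicate 3, Idh3a by 0.27 (limma adjusted p = 0.00459). None of the 7 mitochondrially encoded genes passed, and mt-Co1, which encodes a core subunit of complex IV, had 100057, 62461 and 76122 normalized reads in GFP and 81461, 64408, 74489 and 80318 in Uninjured. The difference between these sets and glycolysis was not tested.

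Enzymes that load amino acids onto tRNA were counted by compartment. Of 20 cytosolic aminoacyl-tRNA synthetase genes, 10 were higher in GFP and 0 lower, and the count was 10 in each of the 17 alternatives. The 16 mitochondrial ones had 0 higher and 0 lower, with a median of -0.03, and the difference between the 2 sets was not tested. The cytosolic sum was 47180.1 to 50417 normalized reads in GFP and 38703 to 39884 in Uninjured, and the mitochondrial sum 9402 to 9675 normalized reads in GFP and 9592 to 9948 in Uninjured. Aars, the alanine enzyme (ENSMUSG00000031960, chr8:111033144-111057664, plus strand, mm10), had 9089, 8015 and 8066 normalized reads in GFP and 5992, 5859.7, 5491 and 5674 in Uninjured. All GFP values lay above all Uninjured values, by 45.8% on average (log2 fold change 0.54, SE 0.06, limma adjusted p = 1.3e-06). Nars, the asparagine enzyme, had 3622, 3192 and 3464 normalized reads in GFP and 2839.6, 2537, 2557 and 2729.6 in Uninjured (log2 fold change 0.36, SE 0.06, limma adjusted p = 0.000276), and Sars, the serine enzyme, rose by 0.37. The others that rose were Cars (0.86), Tars (0.66), Iars (0.52), Gars (0.52), Yars (0.45), Mars (0.43) and Lars (0.29), for cysteine, threonine, isoleucine, glycine, tyrosine, methionine and leucine. The 10 cytosolic members that did not pass had log2 fold changes of -0.08 to 0.13.

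**Figure D4:**
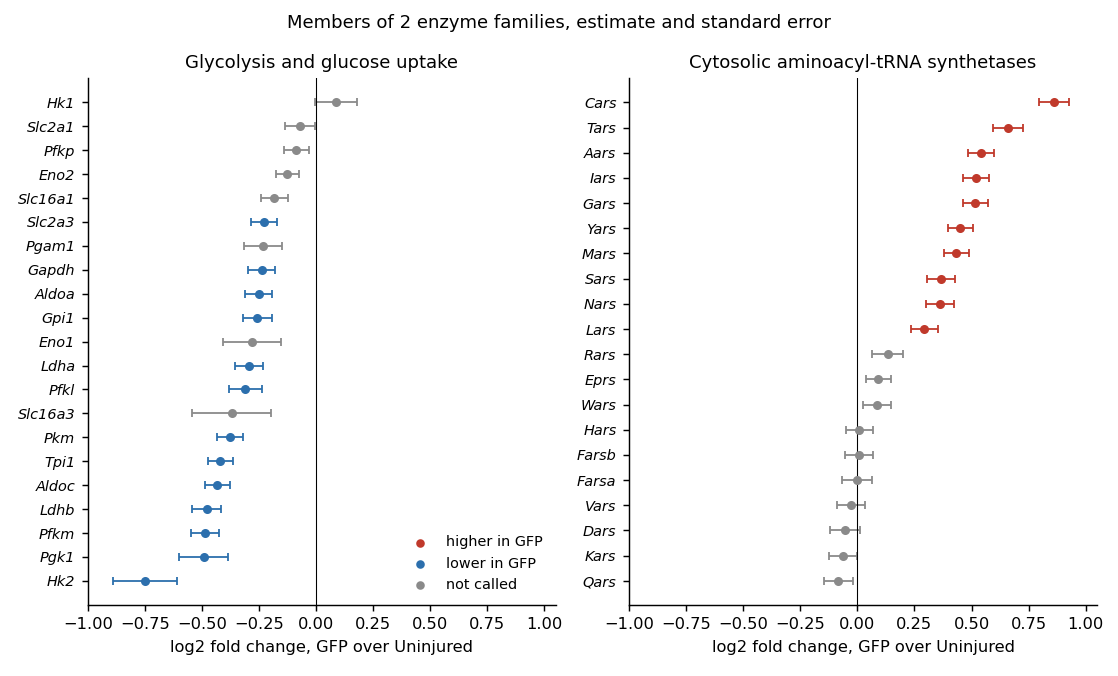
Log2 fold change of GFP over Uninjured, with its standard error as a bar, for 21 genes of glycolysis and glucose uptake and 20 cytosolic aminoacyl-tRNA synthetase genes, with points coloured where the gene passed the limma test and grey where not. The called glycolysis genes all lie below 0 (13 of 21) and the called synthetase genes all above it (10 of 20).

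Stress factors and amino acid transporters were examined beside these enzymes. ATF4, the factor that the integrated stress response induces, drives many synthetase and amino acid transporter genes in mammals. Atf4 itself had 10363, 7443 and 7992 normalized reads in GFP and 5926, 5554, 6480.0 and 5213 in Uninjured. Its rise of 0.56 passed (limma adjusted p = 0.0202), but not without Uninjured replicate 1 (0.0622) or Uninjured replicate 2 (0.0901). Ddit3, a stress factor downstream of it, rose in every alternative (log2 fold change 0.70, SE 0.07, limma adjusted p = 8.58e-07). Of 50 amino acid transporters, 8 rose and 5 fell. The rises included Slc7a11, the cystine exchanger (1.27), Slc7a3 and Slc7a1 for arginine and lysine (1.29 and 0.89), Slc1a4 for serine and alanine (1.17), Slc7a5 for large neutral amino acids (0.50) and Slc38a2 for small neutral ones (0.40). The falls were in the SLC6 group, such as Slc6a17 (-0.37, limma adjusted p = 0.00148), a vesicle transporter, and their count was 1 without GFP replicate 3, 2 without Uninjured replicate 1 and 3 without GFP replicate 4 or Uninjured replicate 2. Of ribosomal protein genes, 1 of 79 cytosolic ones rose, Rpl34 (0.24), and 0 of 78 mitochondrial ones changed. The Rpl34 call was lost without GFP replicate 2 (limma adjusted p = 0.065), GFP replicate 4 (0.125) or Uninjured replicate 1 (0.0506), and 7 cytosolic ones rose at most over the alternatives.

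Promoters of these synthetase genes are shown because a composite ATF4 and C/EBP element, searched as TGATGNAA on both strands, recurred in them. It stood between 250 bases before and 50 after the start in 5 of 12 cytosolic synthetase genes with a matched promoter, against 358 of 12684 tested genes (2.82%). Of genes higher in GFP, 46 of 796 held it (5.78%), and of genes lower in GFP 22 of 866 (2.54%). The sequences are from RefSeq on GRCm38.p6, 5′ to 3′ on the gene's strand, ending at or before the start site, with the match in capitals. Aars lies at chr8:111033684-111033783 (plus strand), Gars at chr6:55037901-55038000 (plus strand) and Tars at chr15:11399659-11399758 (minus strand).
Aars: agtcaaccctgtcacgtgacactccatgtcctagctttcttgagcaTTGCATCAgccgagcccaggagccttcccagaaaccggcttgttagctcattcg
Gars: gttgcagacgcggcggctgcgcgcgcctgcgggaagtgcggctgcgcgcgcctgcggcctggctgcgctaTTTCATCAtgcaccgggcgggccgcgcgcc
Tars: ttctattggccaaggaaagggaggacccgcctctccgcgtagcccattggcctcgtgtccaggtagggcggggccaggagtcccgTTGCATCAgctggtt
All 3 matches read as the opposite strand of the motif, at 112, 30 and 15 bases before the start. A match describes the letters only, and the windows were chosen after the values of these genes were seen.

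Genes of cholesterol synthesis, many of them driven by the sterol sensor SREBP2, were lower at several steps. Of 22 genes, 10 fell and 1 rose (8 to 11 falls over the alternatives), with a median of -0.24 and a sum of 19955 to 20199 normalized reads in GFP and 23901 to 25745 in Uninjured. Hmgcs1, an early enzyme of the pathway, had 1625, 1428 and 1537 normalized reads in GFP and 2472, 2419.6, 1989 and 2082 in Uninjured (log2 fold change -0.55, SE 0.08, limma adjusted p = 5.76e-05). No GFP library reached an Uninjured one. Insig1, the sterol-induced brake on the pathway, fell too (-0.48), and Pmvk, phosphomevalonate kinase, rose (0.25). Abca1, which exports cholesterol to lipoproteins, went the other way (log2 fold change 0.40, SE 0.08, limma adjusted p = 0.00175), as did Apoe.

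Genes of electrical signalling fell in large numbers. Of 80 potassium channel subunits, 32 were lower and 2 higher (21 to 33 lower over the alternatives), with a median of -0.26 and a sum of 97264 to 99855 normalized reads in GFP and 109052 to 121099.5 in Uninjured. Kcnj9, an inward rectifier gated by G proteins, had 2687, 2329 and 2562 normalized reads in GFP and 3328, 3066, 3272 and 3366 in Uninjured (log2 fold change -0.37, SE 0.06, limma adjusted p = 0.000203). Kcnj14, another inward rectifier, and Kcnab2, an auxiliary subunit, fell by 0.53 and 0.34. The 2 that rose were Kcnn4 (1.93, limma adjusted p = 0.00346), a calcium-activated channel of immune cells, and Kcnk6 (1.25, limma adjusted p = 0.0046), a background channel. Of 13 voltage-gated sodium channel subunits, 7 fell and 0 rose, in sum 8661 to 9256 normalized reads in GFP and 12091 to 13216 in Uninjured. Scn2a, a main axonal sodium channel, had 902, 785 and 885 normalized reads in GFP and 1449, 1259, 1340.4 and 1303 in Uninjured (log2 fold change -0.64, SE 0.07, limma adjusted p = 1.19e-06). Scn1a, its close relative, and Scn2b, an auxiliary subunit, fell by 1.20 and 0.75. Calcium channels gave 8 of 24 lower and 0 higher, a count that dropped to 3 without GFP replicate 2 or GFP replicate 4, to 4 without Uninjured replicate 1 and to 5 without Uninjured replicate 2 or Uninjured replicate 4. The ion pump Atp2b2, the plasma membrane calcium ATPase of neurons, fell (log2 fold change -0.40, SE 0.07, limma adjusted p = 0.000327).

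Some subunits of transmitter receptors fell. Of 13 neuronal nicotinic subunits, 5 fell and 1 rose, with 3 falls without GFP replicate 4. Chrna6, the alpha6 subunit and itself a ganglion cell marker, had 991, 886 and 911 normalized reads in GFP and 2799, 2495, 2539.7 and 2602 in Uninjured (log2 fold change -1.49, SE 0.06, limma adjusted p = 1.8e-12), and Chrnb3, which pairs with it, fell by 1.09. Of 19 ionotropic glutamate subunits, 5 fell and 0 rose (3 without GFP replicate 3), Grin2a most in size with 459.8, 421 and 399.5 normalized reads in GFP and 803, 763, 642 and 708 in Uninjured (log2 fold change -0.77, SE 0.08, limma adjusted p = 1.47e-06). Grin1, the obligatory NMDA subunit, fell by 0.36. Of 8 metabotropic glutamate receptors 4 fell, among them Grm4 (-0.41, limma adjusted p = 0.00532), and of 21 GABA-A and glycine subunits 6 fell. The GABA-A and glycine count was 2 without GFP replicate 3 and 3 without GFP replicate 4 or Uninjured replicate 1. Among 33 SNAREs and synaptic vesicle proteins, 10 fell and 1 rose, and 6 fell without GFP replicate 3 or GFP replicate 4. Snap25, the membrane SNARE of transmitter release, had 21264, 17680.2 and 19339.9 normalized reads in GFP and 28188, 25646, 24659.8 and 24743 in Uninjured (log2 fold change -0.41, SE 0.06, limma adjusted p = 0.000147). Of 17 calmodulins and calmodulin-dependent kinases, 7 fell and 1 rose. Calm3, which encodes a calmodulin, fell by 0.38, and the calmodulin genes have related transcripts between which reads may be split. The summed ganglion cell markers fell over the same libraries, and cells other than ganglion cells also express most of these subunits.

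The cytoskeleton genes split within families. Of 15 tubulins, 7 fell and 2 rose (6 to 8 falls over the alternatives), in sum 22959 to 23877 normalized reads in GFP and 28605 to 33079 in Uninjured. Tubb3, the neuronal beta-tubulin, had 1871, 1801 and 1883 normalized reads in GFP and 3823, 3118, 3269 and 3240.3 in Uninjured (log2 fold change -0.86, SE 0.07, limma adjusted p = 1.03e-08). Tuba1a (-0.36) and Tubb5 (-0.31) also fell. Tubb6 (1.13, limma adjusted p = 9.54e-07) and Tuba1c (1.06, limma adjusted p = 0.0484), which neurons share with other cells, rose. The Tuba1c call was lost without GFP replicate 3 (limma adjusted p = 0.124), GFP replicate 4 (0.257) or any 1 of the 4 Uninjured replicates (0.0545, 0.076, 0.0992 and 0.0766). Tubulin isotypes are near-identical over long stretches, so short reads may have been shared out or dropped between them. Among 13 intermediate filament genes, 5 fell and 3 rose, and the 2 directions held different kinds: the neuronal filaments Nefh (-1.12, limma adjusted p = 1.78e-09), Nefl (-1.04, limma adjusted p = 4.09e-09), Nefm (-0.68), Ina (-0.81) and Prph (-0.87) were lower, and the glial or progenitor filaments Vim, Gfap and Nes (1.34, limma adjusted p = 1.43e-07) higher. Nefl had 3337, 2832 and 3544 normalized reads in GFP and 6989, 6210.1, 6589 and 6793 in Uninjured. Of 40 kinesins 4 fell and 1 rose, and the count of falls was 2 without GFP replicate 3, GFP replicate 4 or Uninjured replicate 1.

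Transcription factor families also divided. Of 24 POU, LIM and Iroquois homeobox factors, 11 fell and 0 rose (10 or 11 falls in every alternative), with a median of -0.29. Pou4f1, a ganglion cell factor, had 219, 181 and 170.2 normalized reads in GFP and 597, 619.6, 585 and 614 in Uninjured (log2 fold change -1.67, SE 0.09, limma adjusted p = 1.08e-10). Irx4 (-3.16), Pou4f2 (-2.71) and Isl2 (-1.95), also ganglion cell factors, fell further. Irx6, a factor of OFF bipolar cells, fell by 0.48 (limma adjusted p = 0.000285). Of 26 AP-1, ATF and C/EBP factors, 11 rose and 0 fell, with a median of 0.39. Cebpd, an acute phase factor, had 1922, 2539 and 1702 normalized reads in GFP and 494, 355, 354 and 475 in Uninjured (log2 fold change 2.29, SE 0.19, limma adjusted p = 0.000538). Of 16 SOX factors 3 rose: Sox11, linked to axon growth in injured neurons, had 980.3, 784 and 856 normalized reads in GFP and 131, 113, 119.9 and 73.9 in Uninjured (log2 fold change 3.01, SE 0.18, limma adjusted p = 1.21e-06), and Sox9 and Sox30 rose by 0.70 and 0.89. Of 37 nuclear receptors 5 fell and 0 rose, or 3 fell without any 1 GFP library or Uninjured replicate 1, with Thra, the thyroid hormone receptor alpha, at -0.35, limma adjusted p = 0.000408. Among 361 zinc finger genes of the Zfp symbols, 4 rose and 3 fell, or 2 rose without GFP replicate 2 or GFP replicate 4, 10 rose with total-read scaling, and 5 fell without Uninjured replicate 4.

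Most tested genes of 2 interferon-linked families rose. Of 15 interferon-inducible GTPases, which attack the vacuoles of intracellular pathogens, 15 rose (12 to 15 over the alternatives), with a median of 1.82 and a sum of 2053 to 2698 normalized reads in GFP and 608 to 716 in Uninjured. Irgm1 had 264, 353 and 286 normalized reads in GFP and 95.5, 87.6, 86.1 and 69.4 in Uninjured (log2 fold change 1.82, SE 0.13, limma adjusted p = 6.08e-09). Gbp2 had 409, 622 and 384 normalized reads in GFP and 105, 62.3, 71.5 and 80.6 in Uninjured (log2 fold change 2.54, SE 0.20, limma adjusted p = 5.89e-06). In both, the GFP libraries lay far above the Uninjured ones. Of 24 IFIT, OAS and related effectors 18 rose (13 to 19 over the alternatives), among them Oasl2 (1.27, limma adjusted p = 1.36e-06) and Ifit3 (1.48, limma adjusted p = 1.09e-08). Stat3, a transcription factor that carries gp130 signals, rose by 1.09, one of 7 that rose among 26 interferon regulatory factors, STATs and JAKs, with 0 falls and a median of 0.18. Of 17 genes of MHC class I and its peptide pump, 11 rose with a median of 1.06. B2m, the light chain of these molecules, had 1562, 2173 and 1788 normalized reads in GFP and 511, 493, 438 and 543 in Uninjured (log2 fold change 1.88, SE 0.10, limma adjusted p = 1.02e-08). H2-K1 and H2-D1 rose by 1.55 and 1.06, and the class I genes are near-identical in part, so that reads may be split between them. The inducible proteasome subunits Psmb8 (1.53) and Psmb9 (1.51) rose, whereas 0 of 34 constitutive subunits rose and 1 fell. That count of falls was 0 without GFP replicate 3 or GFP replicate 4 and with total-read scaling, and 2 without Uninjured replicate 2. Microglial and macrophage markers rose over the same libraries, as given above.

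Promoters of the GTPase genes are shown because the interferon-stimulated response element, searched on both strands as GAAA, any 2 bases and GAAA, stood in 8 of 9 with a matched promoter, against 460 of 12684 tested genes (3.63%). It stood in 47 of 307 genes at least 2-fold higher (15.3%), 28 of 489 genes less than 2-fold higher (5.73%) and 31 of 866 lower genes (3.58%). Among the 57 abundant rises with a promoter, 0 held it. Of 15 MHC class I genes with a matched promoter, 3 held it (20%), B2m among them. The sequences are from RefSeq on GRCm38.p6, with the match in capitals: Gbp2 at chr3:142620559-142620658 (plus strand), Gbp7 at chr3:142530236-142530335 (plus strand), Igtp at chr11:58199456-58199555 (plus strand) and B2m, of the MHC class I set, at chr2:122147503-122147602 (plus strand).
Gbp2: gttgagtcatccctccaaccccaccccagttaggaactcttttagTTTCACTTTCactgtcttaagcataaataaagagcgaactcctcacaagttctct
Gbp7: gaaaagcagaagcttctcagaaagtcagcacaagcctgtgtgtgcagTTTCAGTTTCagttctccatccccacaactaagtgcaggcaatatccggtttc
Igtp: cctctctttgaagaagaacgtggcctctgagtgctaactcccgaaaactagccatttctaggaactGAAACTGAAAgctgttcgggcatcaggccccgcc
B2m: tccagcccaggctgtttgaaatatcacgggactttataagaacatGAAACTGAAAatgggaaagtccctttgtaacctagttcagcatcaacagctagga
The matches began 59, 53, 34 and 139 bases before the start, and Gbp2 and Gbp7 carried the motif on the opposite strand. Promoters with the letters were not all higher: Glul, which fell, also holds the motif in its window. These windows too were chosen after the values were seen.

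Families that immune cells and other cells share moved in part. Of 28 cathepsins and lysosomal hydrolases 9 rose and 0 fell (7 to 12 over the alternatives), with Lamp2, a lysosomal membrane protein, at 0.31, limma adjusted p = 0.00107. Of 28 integrins 8 rose: the leukocyte chains Itgax (4.14), Itgb2 (1.94) and Itgam (1.84) by more than Itgav (0.29), which many cells express. Itgav had 1905, 1976 and 2046 normalized reads in GFP and 1712, 1678, 1508 and 1590.5 in Uninjured (log2 fold change 0.29, SE 0.06, limma adjusted p = 0.00259). C1qc, of the complement recognition complex, rose by 1.85. Of 5 lymphocyte markers tested, 2 rose, Jchain (1.79) and Cd4 (1.17). The Cd4 call was lost without GFP replicate 3 (limma adjusted p = 0.0509) and with DESeq2 (adjusted p = 0.0576). Of 27 immunoglobulin genes, whose near-identical segments may split reads, 22 rose with a median of 4.24 (12 to 23 over the alternatives, the lowest with edgeR). Their sum was 4578 to 8373 normalized reads in GFP and 591 to 729 in Uninjured. Every gene in the table had at least 36 reads in all, so some segments may be in it only through their GFP reads. How far this raises the count of rises was not tested. Of 7 MHC class II genes, 5 rose with a median of 2.99 (2 to 6 over the alternatives). Top2a and Mki67, genes of dividing cells, rose by 2.84 and 2.38. Among 18 MCM and DNA replication genes, 3 rose and 0 fell, with a median of 0.10. Of 32 cyclins, CDKs and CDK inhibitors, 4 rose and 2 fell, or 2 rose without GFP replicate 4. Mki67 had 20.5, 28.6 and 26.6 normalized reads in GFP and 2.48, 7.23, 3.97 and 3.36 in Uninjured.

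Some families held members that moved in opposite directions. Of the metallothioneins, Mt1 (log2 fold change 0.87, SE 0.13, limma adjusted p = 0.00234) and Mt2 (1.47) rose and Mt3, the neuronal form, fell (log2 fold change -0.80, SE 0.13, limma adjusted p = 0.000211). Mt3 had 90.2, 95 and 96.1 normalized reads in GFP and 201, 163, 140.4 and 157 in Uninjured. Among 19 FGF ligands and receptors, 5 fell and 2 rose with a median of -0.21, yet the summed level was 7237 to 7559.6 normalized reads in GFP and 5701 to 6431 in Uninjured. Fgf2, a growth factor made by Müller glia and photoreceptors, outweighed the falls and had 3325, 3740.3 and 3428 normalized reads in GFP and 953, 892, 669.5 and 908 in Uninjured (log2 fold change 2.04, SE 0.11, limma adjusted p = 6.36e-07). Of 16 chemokines 6 rose and 1 fell (2 rose with edgeR), with a median of 0.60, or 0.16 over those that edgeR tested. Cxcl9, which edgeR did not test, had 67 reads in GFP and 0 in Uninjured. Such members may be in the table only through their GFP reads, and how far this raises the count was not tested. The summed level of the chemokines was 3459 to 3601 normalized reads in GFP and 3559.5 to 4140.1 in Uninjured. The neuronal Cx3cl1, which fell (log2 fold change -0.33, SE 0.08, limma adjusted p = 0.00709), held more reads than any other member. Of 20 neuropeptides and granins 4 rose, among them Vgf (1.21), Adcyap1 (1.66) and Crh (1.82), and 2 fell, among them Chga (-0.30). Of 19 genes of the BCL2 family, which governs apoptosis, 6 rose and 1 fell (2 fell without Uninjured replicate 3 or Uninjured replicate 4). Bcl2l11, the death activator BIM, rose by 0.49 and Mcl1, which opposes death, by 0.27, and Bcl2l2, which also opposes it, fell by 0.24.

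Several families, large and small, gave few or no calls. Besides ribosomal proteins and zinc finger genes, 0 genes passed among 11 SR splicing factors, 20 hnRNP proteins, 30 WNT ligands and Frizzled receptors, 9 Notch pathway genes and 23 zinc transporters, and 1 of 35 lysine methyltransferases and demethylases, Kdm6a, whose call was lost without each of the 7 libraries in turn (limma adjusted p = 0.0538 to 0.132) and with a pseudocount of 5 (0.0506). Leaving out 1 library gave 2 WNT pathway falls without GFP replicate 3, 1 hnRNP fall without GFP replicate 4 and 1 Notch pathway fall without Uninjured replicate 4. A count of 0 here does not show equal levels: the median half-width of 0.23 leaves room for small changes. With 11.4% of all genes called, a count of 0 in sets of 9 to 23 genes is near the background and says little. Medians of these families lay within 0.06 of 0. By gene type, 992 of the 1112 rises and 1127 of the 1164 falls were protein-coding, and whether counting used strand is not given in the sources used here, so reads of overlapping antisense genes cannot be told apart.

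**Figure D5:**
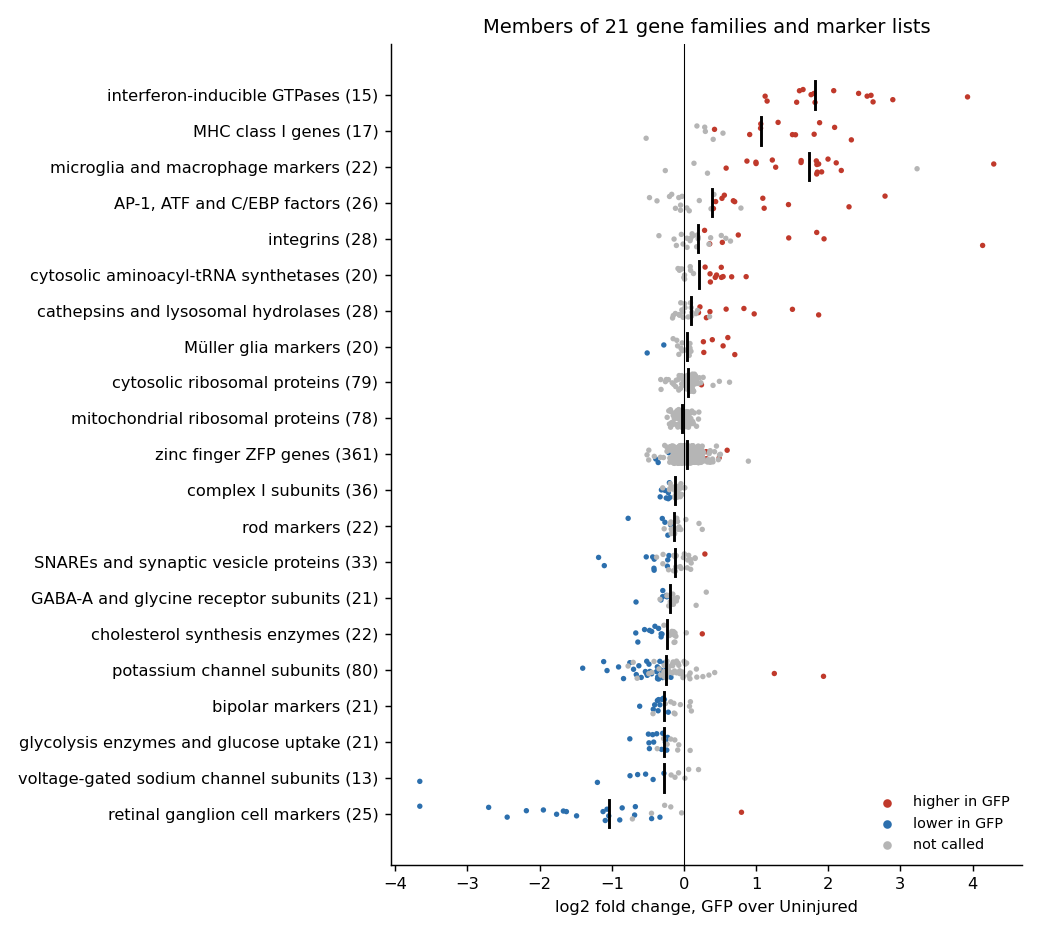
Log2 fold change of GFP over Uninjured for the tested members of 21 gene families (points, coloured where the gene passed the limma test), with the family's median as a black bar. Cytosolic aminoacyl-tRNA synthetases, interferon-inducible GTPases and MHC class I genes lie mainly above 0, glycolysis, cholesterol, sodium and potassium channel genes mainly below, and ribosomal proteins close to 0.

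Several genes with large rises had few reads in Uninjured. Sprr1a, a gene induced in injured neurons, had 106, 82.4 and 89.2 normalized reads in GFP and 2.48, 0, 0 and 0 in Uninjured, or 268 reads in the GFP libraries and 2 in the Uninjured libraries. The ratio of pooled normalized reads was 202, with an exact 95% interval of 55.5 to 1680 that covers counting error only. Colec10, a collectin, had 112 reads in GFP and 0 in Uninjured, so it was at least 56.4-fold higher against a floor of 3 reads over the Uninjured group. Ecel1, an endopeptidase induced in injured neurons, had 1631, 1393 and 1562 normalized reads in GFP and 12.4, 13.5, 17.9 and 11.2 in Uninjured (log2 fold change 6.71, SE 0.15, limma adjusted p = 3.92e-17). Among the falls, Scn4b, a sodium channel subunit of ganglion cells, had 15.2, 11.4 and 10.4 normalized reads in GFP and 185, 156, 176 and 149 in Uninjured (log2 fold change -3.66, SE 0.17, limma adjusted p = 1.68e-11). In GFP minus Uninjured, the Ecel1 means differed by 1515 normalized reads, and those of Pkm by -14450.2.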

How the data were processed

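Retinal RNA had been depleted of ribosomal RNA, made into libraries with a SMARTer kit and sequenced as single reads of 50 bases on an Illumina HiSeq, per the labels' protocols. STAR, HTSeq, DESeq2 and the build mm10 stand in the submitters' processing notes, without versions or roles. The deposited signal per gene and library, by the authors, is a normalized count: dividing each library by 1 factor gave whole reads, to within 0.01, for 100% of values.

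From these values limma 3.58.1 (trend, robust, in R 4.3.3) was fitted on log2(value + 1), leaving out genes whose mean was under 1, two-sided, with Benjamini-Hochberg adjustment over all genes, and called at 0.05. Fold changes are on this scale, which understates those of low genes. edgeR 4.0.16 (quasi-likelihood, TMM) and DESeq2 1.42.0 on recovered reads were among 17 alternatives. The lowest mean of any gene was 4.639, so the filter removed none. The alternative without this filter, counted among the 17, therefore repeated the main fit. The steps were tested on simulated data. IDs were matched to GENCODE M21 (19875 of 19961). Every gene in the table had at least 36 reads in all. The interval given for the Sprr1a ratio of pooled normalized reads covers counting error only.

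The members, gene lists and naming rule were chosen with earlier results of these data known. By that rule, genes named are the 12 rises and 12 falls of largest log2 fold change under 2-fold among abundant genes without overlap, the 6 of largest difference in reads and the 4 of largest log2 fold change in each direction, up to 3 called members of highest mean per family, and 2 called genes per promoter motif. Other members named were chosen after their values were seen. The 111 families include 14 marker lists. Per motif, the called genes of highest mean were Glul and Gprasp1 (interferon element), Apoe and Tnfaip3 (ATF4 element), Aldoa and Slc12a5 (AP-1), Ldha and Klc1 (CRE), Vdac1 and Rap1gap (NF-kB), and Rom1 and Aldoc (GAS). Results for some single genes are not given.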

Additional observations from a re-analysis of the deposited data

Results flagged for a closer look

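In 12 of 314 named genes, 1 Uninjured library stood far from the other 3, by a gap above the 95% critical value of Dixon's test for 4 samples. Chance alone gives such a gap in about 1 of 20 groups, and the GFP group, with 3 libraries, was not tested. Uninjured replicate 1 was the highest for Gprasp1 (9315.28 normalized reads), Sema6b (1168.6), S100a16 (477.611) and Sprr1a (2.4811) and the lowest for Epha10 (754.254). Uninjured replicate 2 was the highest for Abca1 (1833.4) and the lowest for Atp5k (958.247) and Psmb9 (18.0631). Uninjured replicate 3 was the highest for Ddit3 (1094.02). Uninjured replicate 4 was the highest for Jchain (170.249) and Lamb3 (31.3616) and the lowest for Dusp5 (644.034). Gprasp1 lost its call without GFP replicate 3 (limma adjusted p = 0.0622), Epha10 without GFP replicate 4 (0.055) and Lamb3 without GFP replicate 2 (0.113). Dusp5 lost it without any 1 library other than Uninjured replicate 4. The Atp5k call was lost with edgeR (adjusted p = 0.0735), DESeq2 (0.0595) and total-read scaling (limma adjusted p = 0.192), and without several single libraries.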

How the results depend on the processing

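None of the 303 named genes with a call changed direction under the 17 alternatives, and 186 of them kept the call in all. Direction was not compared for named genes without a call. Rises made up 48.9% of calls, and 46.9% to 64.2% over the alternatives, so which direction held more calls depended on the setting. With scaling by total reads outside ribosomal RNA features, chosen after seeing the data and the highest of these, abundant rises numbered 134 and moderate ones among them 133, against 73 and 72. Restricted to the 5 libraries in which ribosomal RNA reads reached 1%, which leaves fewer samples, falls numbered 772 against 1164. With a replicate block, rises numbered 884 and falls 749, abundant falls 158 and moderate abundant falls 157, against 1112, 1164, 258 and 257. The data gave no sign that the numbers pair the samples. Deviations of same-numbered libraries correlated at 0.035, -0.186 and 0.174, and those of different-numbered libraries at -0.2645 to 0.1705. With so few libraries these correlations cannot exclude pairing or a shared batch, and this fit is given once. Leaving out each library in turn gave 802 to 1119 rises, 792 to 1155 falls, 354 to 467 rises and 79 to 95 falls of at least 2-fold, 54 to 75 abundant rises and 161 to 261 abundant falls, of which 53 to 74 and 161 to 260 were moderate; the cause of the lower counts was not tested beyond the smaller number of libraries. Depth limits the low genes most: the median half-width of a 95% interval was 0.23 for all genes and 0.12 for abundant ones.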
